A study of Mus musculus with 2 samples.

Results

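The collagen chains are 42 genes, read by 82 probe sets, out of 18193 genes and 45037 probe sets on 2 Affymetrix arrays hybridised with RNA of mouse peritoneal macrophages. They were chosen by name: every gene whose only platform symbol is Col, a number, a and a number was taken, and the family was singled out because an earlier look at these same log2 signals had found many of its members higher on one array. The signals that drew attention to the family are therefore a description here, and nothing is supported with them. The cells came from male C57BL/6 mice. One group was transfected with HDAC9 siRNA, against a class IIa histone deacetylase, and the other with a control siRNA. RNA was taken after 48 h in both, and there was 1 array per group. The design asks which transcripts differ when HDAC9 is knocked down. With no replicate, no difference below could be set against a spread between cultures, and no test was made. The labels give no purification step, say nothing of pooled mice and do not describe the siRNA sequences.

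Collagens are secreted proteins in which chains with a repeating glycine pattern wind around each other into a helix. Fibrillar collagens form the rope-like fibres of connective tissue, type IV collagen forms the sheet of basement membranes, and type VI collagen forms beaded filaments that link cells to both. FACIT collagens (fibril-associated collagens with interrupted helices) decorate fibres. Fibroblasts, mesothelial cells and smooth muscle cells are the main makers of these proteins in the peritoneal wall. Macrophages are better known for taking collagen up and degrading it, although type VI and type VIII chains have also been described in them.

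The arrays had equal scaling, with a trimmed mean signal of 497 on each, and 53.6% of probe sets were above background with HDAC9 siRNA against 51.4% with control siRNA. Background here is a floor of 6.34 on the log2 scale, the 95th percentile of 80 probe sets for olfactory and vomeronasal receptors. Signals below the floor were raised to it before a ratio was taken, so where 1 array lies at the floor the ratio can only be a bound, written "at least". The only yardstick for a single ratio was the scatter between different probe sets of a gene, a standard deviation of 0.29 log2 units over 5671 genes. Macrophage markers were present, and 10 of 12 were above background on both arrays. Among them were Adgre1 (log2 signal 12.72 with HDAC9 siRNA and 12.71 with control siRNA), Csf1r (13.74 and 13.90), Cd68 (14.40 and 14.46), Lyz2 (14.72 and 14.72), Itgam (10.84 and 10.85) and Gata6 (11.20 and 10.74). Timd4 and Lyve1 were below background on both. Some markers of other cells were about as bright, such as the fibroblast marker Dcn (13.83 and 13.70) and the mesothelial marker Upk3b (12.70 and 12.46). These 2 were chosen after their values were seen. The levels thus do not show how pure the macrophages were. The siRNA target Hdac9 was dim, at 5.69 (below background) with HDAC9 siRNA and 6.88 with control siRNA, at least 1.46-fold lower, so the knockdown itself is shown only as a bound.

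Of the 42 collagen genes, 25 exceeded the floor on 1 array or both, and 21 did so on both. With HDAC9 siRNA 6 genes were at least 2-fold higher, where 1.44% of all 12090 genes above background were, and 0 were at least 2-fold lower, where 0.372% of all genes were. At 1.5-fold, 15 collagen genes were higher, where 7.81% of all genes were, and 0 lower, where 337 of all 12090 genes were. Ratios lay above 0 in 23 collagen genes (92.0%), against 54.1% of all genes. The median log2 ratio was 0.76, where the median of all genes was 0.03 and their 95th percentile 0.71. Because the family was picked with these ratios in view, the counts describe it and do not test it. A gene that passed the floor on 1 array alone had to differ in that direction, and 4 of the 25 were of that kind. In bulk RNA, more cells of a collagen-making type and more collagen RNA per cell cannot be told apart.

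**Figure D1:**
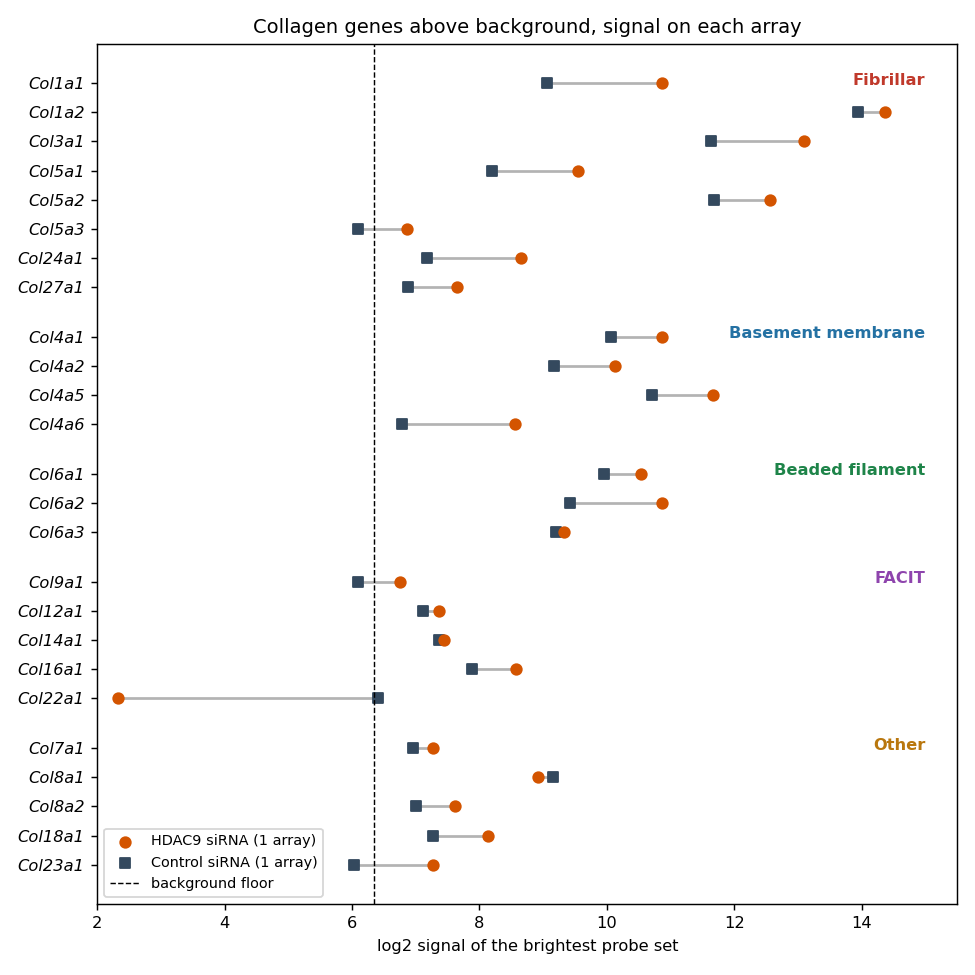
Log2 signal of each collagen gene above background on at least 1 array, by its brightest probe set, with 1 array per group (circles HDAC9 siRNA, squares control siRNA); the dashed line is the background floor of 6.34. In 23 of 25 genes the HDAC9 siRNA circle lies to the right; Col8a1 and Col22a1 are the exceptions.

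The fibrillar chains held 4 of the 6 genes past 2-fold. All 8 fibrillar genes above background had ratios above 0, from 0.43 to 1.80, with a median of 1.12. After median centring the median was 0.73 over 9 genes, after quantile normalization 0.94 and after loess 0.92. The gene added in each was Col11a1, at a ratio of -0.04. Col1a1, the major chain of type I collagen in skin, tendon and bone, had a log2 signal of 10.86 with HDAC9 siRNA and 9.06 with control siRNA, 3.49-fold higher. Its other probe set gave 10.73 and 9.09, a ratio of 1.64, so both readings of Col1a1 were high on the same array and differed from each other by only 0.17. Col1a2, the partner chain of type I collagen, was at 14.37 with HDAC9 siRNA and 13.94 with control siRNA, a ratio of 0.43. Its other probe sets gave 0.85 (13.18 and 12.33) and 0.16 (8.26 and 8.10). None of the 3 Col1a2 readings reached 2-fold, unlike both of Col1a1.

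Col3a1, the single chain of type III collagen and a companion of type I in elastic tissues and early scars, had signals of 13.09 with HDAC9 siRNA and 11.63 with control siRNA, 2.75-fold higher. Its dimmer probe set gave 10.30 and 8.49, 3.51-fold higher. Type V collagen starts and trims type I fibres. Its chain Col5a1 was at 9.55 with HDAC9 siRNA and 8.19 with control siRNA, 2.56-fold higher. Its second probe set gave less, 0.61 (8.95 and 8.34), and the third, at 6.81 and, below background, 4.79, gave only a bound of at least 0.48. Col5a2, the usual partner of Col5a1, was at 12.56 with HDAC9 siRNA and 11.68 with control siRNA, a ratio of 0.88, and its second probe set gave 0.61. Col5a3, a rarer type V chain, was above background on the HDAC9 siRNA array alone, at 6.87 against 6.10, a ratio of at least 0.53.

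The other fibrillar genes are less well known products. Col24a1, which in mice is expressed in developing bone and cornea, had a signal of 8.65 with HDAC9 siRNA and 7.18 with control siRNA, 2.76-fold higher by its only probe set. Col27a1, a chain of cartilage, was at 7.64 with HDAC9 siRNA and 6.88 with control siRNA, a ratio of 0.76. Its dimmer probe set gave 7.51 and 5.41, the control signal below background, at least 2.26-fold higher. The cartilage chains Col2a1, Col11a1 and Col11a2 were below background on both arrays. Col11a1 lay just under the floor, at 6.25 with HDAC9 siRNA and 6.32 with control siRNA. The fibrillar genes above background thus read higher on the HDAC9 siRNA array by every probe set that passed the floor.

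**Figure D2:**
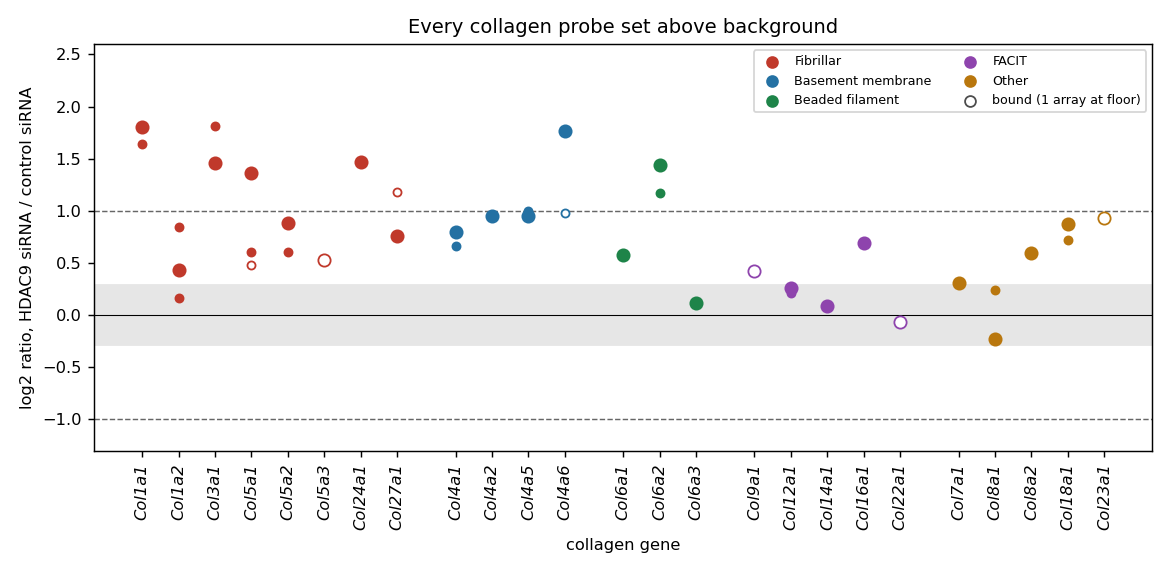
Log2 ratio, HDAC9 siRNA over control siRNA, of every collagen probe set above background on at least 1 array (40 of 82); large points are the brightest probe set of a gene, open points are bounds, dashed lines mark 2-fold and the grey band the 0.29 scatter. Of the 40 ratios, 38 are above 0, where 53.4% of all 21955 probe sets with 1 gene symbol above background are. Past 2-fold upward are 10 probe sets. The 1.44% of all genes past 2-fold counts 1 probe set per gene, so it is not a like measure.

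The basement membrane chains that could be read were all higher, 3 of them by 0.80 to 0.95 log2 units and Col4a6 by more. Type IV collagen is built from sets of chains whose genes lie in head-to-head pairs, Col4a1 with Col4a2, Col4a3 with Col4a4 and Col4a5 with Col4a6. Col4a1 and Col4a2, the chains present in nearly every basement membrane, had signals of 10.86 and 10.12 with HDAC9 siRNA and of 10.06 and 9.17 with control siRNA. Their ratios, 0.80 and 0.95, differed by less than the scatter of a probe set, and the second probe set of Col4a1 gave 0.66. Col4a5, a chain of kidney, lung and smooth muscle basement membranes, was at 11.67 with HDAC9 siRNA and 10.71 with control siRNA, 1.94-fold higher. Its dimmer probe set, at 10.13 and 9.13, stood just short of 2-fold when left unrounded. Col4a6, its gene neighbour and assembly partner, was at 8.55 with HDAC9 siRNA and 6.79 with control siRNA, 3.40-fold higher. A second Col4a6 probe set gave a bound of at least 0.98 (7.32 and 6.12). Col4a3 and Col4a4, chains of the kidney filter, were below background on both arrays with all of their probe sets, so 4 of the 6 type IV genes could be read.

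The beaded-filament genes were uneven. Type VI collagen is assembled mainly from the products of Col6a1, Col6a2 and Col6a3. Col6a2 had a signal of 10.86 with HDAC9 siRNA and 9.42 with control siRNA, 2.71-fold higher, and its second probe set gave 2.25-fold (10.02 and 8.85). Both Col6a2 probe sets have names ending in _a_at or _x_at, which mark sets shared between transcripts or open to cross-hybridisation. The brightest probe sets of Col1a2, Col3a1, Col9a1, Col14a1 and Col16a1 also end in _a_at. Col6a1 was at 10.54 with HDAC9 siRNA and 9.95 with control siRNA, a ratio of 0.58. Col6a3, the longest of the 3 chains, was at 9.32 with HDAC9 siRNA and 9.20 with control siRNA, a ratio of 0.12 that lies inside the scatter and was -0.03 after centring each array on its median. Col6a4 and Col6a5 were below background on both arrays. The Col6a3 ratio was thus lower than that of Col6a2 by 1.32 log2 units and lower than that of Col6a1 by 0.46.

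Chains that share a protein differed by unequal amounts. In type I collagen the Col1a1 ratio exceeded that of Col1a2 by 1.37 log2 units, and in type V that of Col5a1 exceeded Col5a2 by 0.48. The size of the type I gap depends on the Col1a2 probe set read. With _s_at, _x_at and _a_at probe sets left out, Col1a2 was at 0.85 and Col1a1 at 1.80. By the median over probe sets they were at 0.43 and 1.72. The type V order rests on the brightest probe sets: by the median over probe sets Col5a1 was at 0.61, itself a lower bound, and Col5a2 at 0.74. In type IV the Col4a1 ratio was below that of Col4a2 by 0.15, and that of Col4a5 below Col4a6 by 0.81. By the median over probe sets Col4a5 was at 0.97 and Col4a6, as a lower bound, at 1.37. These are differences of ratios between arrays, not of levels between genes, and have no replicate behind them.

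The FACIT genes had the lowest median of the 5 groups, 0.26 as deposited, 0.11 after median centring, 0.14 after quantile normalization and 0.15 after loess. Past 2-fold were 0 of the 5 above background, where 1.44% of all genes were higher and 0.372% lower. Col16a1, found in fibrils of skin and cartilage, had a signal of 8.58 with HDAC9 siRNA and 7.89 with control siRNA, 1.62-fold higher by its only probe set. Col12a1, of tendons and ligaments, was at 7.37 with HDAC9 siRNA and 7.11 with control siRNA, and Col14a1, of skin and tendon, at 7.45 and 7.36. Both ratios (0.26 and 0.09) lie inside the scatter. That of Col14a1 turned to -0.06, -0.02 and -0.01 after median centring, quantile normalization and loess. Col9a1, a cartilage chain, was above background on the HDAC9 siRNA array alone (6.76 against 6.09), a ratio of at least 0.42. Col22a1, known from tissue junctions, was above background only with control siRNA, at 6.41 against 2.33 with HDAC9 siRNA. Its bound is -0.07, since the control signal lay barely above the floor. Its other probe sets were below background on both arrays. Col9a2, Col9a3, Col19a1 and Col20a1 were below background on both arrays.

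Of the 11 remaining chains 5 were readable. Col18a1, a basement membrane collagen whose end fragment is endostatin, had a signal of 8.14 with HDAC9 siRNA and 7.27 with control siRNA, 1.83-fold higher, and its second probe set gave 0.72. Col23a1, a collagen that spans the cell membrane, was at 7.27 with HDAC9 siRNA and, below background, 6.03 with control siRNA, at least 1.90-fold higher. Its other probe sets were below background on both arrays. The short-chain collagens of type VIII, which form hexagonal lattices under endothelium, did not move together. Col8a2 was at 7.61 with HDAC9 siRNA and 7.01 with control siRNA, a ratio of 0.60, and Col8a1 at 8.92 and 9.15, a ratio of -0.23. The second Col8a1 probe set gave 0.24 (7.16 and 6.92), so its sign depends on the probe set read, and both values are within the scatter. Col7a1, the anchoring fibril chain of skin, was at 7.27 with HDAC9 siRNA and 6.96 with control siRNA, a ratio of 0.31. Col10a1, Col13a1, Col15a1, Col17a1, Col25a1 and Col26a1 were below background on both arrays.

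Different probe sets of a collagen gene mostly gave the same sign. Several probe sets exceeded the floor in 13 genes, and the sign was shared by all of them in 12, and Col8a1 was the exception. Over all genes with several such probe sets, the 2 brightest had the same sign in 61.2%. That share cannot test the collagen agreement, because the family was chosen for high ratios, while all genes had a median of 0.03. It also took 2 probe sets per gene, where the collagen count took every probe set above the floor. All readings were past 2-fold in 3 genes, Col1a1, Col3a1 and Col6a2. In 11 genes several probe sets were above background on both arrays, and the range of their ratios had a median of 0.27. Among these 11 it was 0.75 in Col5a1 and 0.69 in Col1a2, and the others lay between 0.04 and 0.47. Probe sets of a gene read the same RNA on the same arrays and are not replicates.

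The differences were not limited to dim genes. Genes above background were divided into 4 equal bins by mean signal. In the dimmest bin 2.65% of all genes were at least 2-fold higher, and 0 of 9 collagen genes were. In the next bin the share of all genes was 2.15%, and 3 of 6 collagen genes passed (Col24a1, Col4a6 and Col5a1). In the third the share was 0.728%, and 2 of 6 passed (Col1a1 and Col6a2). In the brightest bin it was 0.232%, or 7 genes of 3023, and 1 of 4 collagen genes passed (Col3a1). The collagen medians in these bins were 0.42, 1.11, 0.87 and 0.92, where those of all genes were 0.15, 0.09, 0.02 and -0.05. In rank over all 12090 genes above background, Col1a1 stood 4th from the top, Col4a6 7th, Col24a1 17th, Col3a1 19th, Col6a2 24th and Col5a1 38th.

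**Figure D3:**
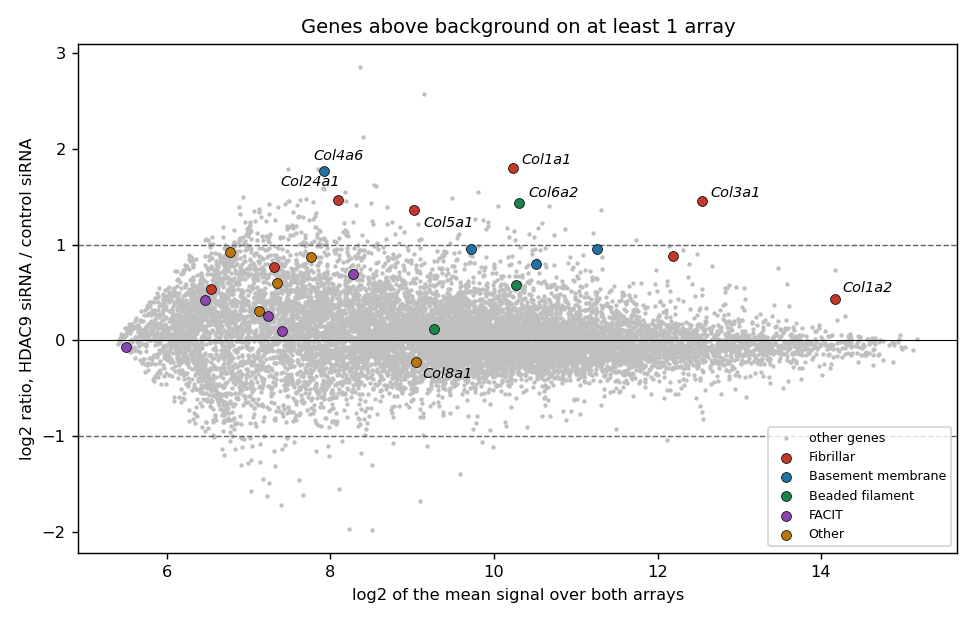
Log2 ratio, HDAC9 siRNA over control siRNA, against the log2 of the mean signal over both arrays, for genes above background on at least 1 array (grey) with the 25 collagen genes coloured by group; dashed lines mark 2-fold. Ratios of all genes fan out at low signal, and Col3a1, Col1a1 and Col6a2 stand above most genes of like signal.

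The start regions of 4 genes are shown because they belong to chains past 2-fold (Col3a1, Col24a1 and Col6a2) or to the partner of Col1a1 (Col1a2), and because these windows overlap no annotated gene. Each is the 250 bases before the RefSeq start site on GRCm38.p6, 5′ to 3′ along the gene: Col3a1 at chr1:45311288-45311537 (+), Col24a1 at chr3:145292222-145292471 (+), Col6a2 at chr10:76623631-76623880 (-) and Col1a2 at chr6:4505368-4505617 (+). Capitals mark matches, on either strand, to the TATA box, searched as TATAAA, to the CCAAT box by its name's letters, to the GC box, searched as GGGCGG, to the AP-1 site, searched as TGANTCA, to the SMAD-binding element, searched as CAGAC, and to the MEF2 consensus and the CArG box.
Col3a1: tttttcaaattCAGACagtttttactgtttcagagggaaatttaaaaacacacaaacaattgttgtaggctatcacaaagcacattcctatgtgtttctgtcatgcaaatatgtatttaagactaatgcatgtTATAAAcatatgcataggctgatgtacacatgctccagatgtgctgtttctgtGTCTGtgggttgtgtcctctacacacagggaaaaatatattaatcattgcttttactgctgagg
Col24a1: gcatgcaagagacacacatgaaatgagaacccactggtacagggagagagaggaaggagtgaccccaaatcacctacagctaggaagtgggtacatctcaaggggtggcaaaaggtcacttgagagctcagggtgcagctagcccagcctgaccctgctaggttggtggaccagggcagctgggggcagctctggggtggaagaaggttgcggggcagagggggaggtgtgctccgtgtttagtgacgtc
Col6a2: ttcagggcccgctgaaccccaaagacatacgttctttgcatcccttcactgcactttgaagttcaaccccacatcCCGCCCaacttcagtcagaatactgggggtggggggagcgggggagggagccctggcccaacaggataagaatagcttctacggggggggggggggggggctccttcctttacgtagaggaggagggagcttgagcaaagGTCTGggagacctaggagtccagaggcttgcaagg
Col1a2: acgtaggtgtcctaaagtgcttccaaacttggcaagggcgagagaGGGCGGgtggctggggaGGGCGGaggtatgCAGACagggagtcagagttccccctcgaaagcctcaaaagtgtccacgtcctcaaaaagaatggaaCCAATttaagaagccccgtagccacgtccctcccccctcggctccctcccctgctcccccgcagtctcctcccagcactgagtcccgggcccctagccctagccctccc
The matches shown do not overlap. Col3a1 holds CAGAC 239 and 64 bases before its start and TATAAA 117 bases before it, and no other motif of the set. Col6a2 holds a GC box at 175 and CAGAC at 35 bases. Col1a2 holds GC boxes at 205 and 188, CAGAC at 175 and CCAAT at 109 bases. The Col24a1 window holds none of these letters. Over 32851 windows of the same length in the table, CAGAC was found in 42.2%, against 41.7% of the 36 windows of 33 collagen genes. CCAAT was found in 33.8% against 36.1%, TATAAA in 12.4% against 13.9%, and GGGCGG in 32.7% against 58.3%. The AP-1 site was found in 6.75%, the MEF2 consensus in 2.92% and the CArG box in 1.47% of all windows, and each in 1 collagen window (Col6a1, Col13a1 and Col6a4 in that order). CAGAC is thus in the windows of Col3a1 and Col6a2 but not of Col24a1, and a match is a run of letters, not a measured site.

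The genes that build and assemble collagen had medians nearer 0 than the chains. Of 17 modifying and folding genes above background, 0 were past 2-fold in either direction, and the median ratio was 0.07. Over all genes above background 1.44% were at least 2-fold higher and 0.372% lower. Counts of 0 or 1 in lists this short therefore do not set them apart from other genes. Serpinh1, the chaperone of folding procollagen, was at 12.76 with HDAC9 siRNA and 12.28 with control siRNA, a ratio of 0.47. Plod2, a lysyl hydroxylase, was also at 0.47, Sec31a, of the secretory vesicle coat, at 0.38, and P4ha2, a prolyl hydroxylase subunit, at -0.44. Among 14 genes for processing, crosslinking and fibre assembly, 1 was past 2-fold, Pcolce2, which speeds removal of the procollagen tail (8.65 with HDAC9 siRNA and 7.49 with control siRNA, 2.23-fold higher). Fn1, for fibronectin, was at 0.73, Adamts3, a procollagen protease, at 0.70 and the fibre-binding proteoglycan Fmod at -0.64. The median of these 14 genes was 0.17. Among 11 genes for degradation and uptake 0 were past 2-fold (median 0.06). Mmp14, a membrane collagenase, was at 0.51, Timp3, an inhibitor, at 0.21, Mmp2 at -0.44 and the stromal protease Fap at -0.56.

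Of 8 collagen receptor genes above background 1 was past 2-fold, Ddr1. Over all genes above background 1.44% were at least 2-fold higher and 0.372% lower. Ddr1, a receptor kinase that binds collagen directly, was at 12.16 with HDAC9 siRNA and 11.12 with control siRNA, 2.07-fold higher by an _x_at probe set. Its relative Ddr2 was at 0.48, the integrin gene Itga1 at 0.60 and the platelet receptor gene Gp6, a bound, at 0.64 or more. TGF-beta is a main inducer of collagen genes in fibroblasts. Of 18 genes of its signalling 0 were past 2-fold, and the median was 0.26. Past 1.5-fold 5 were higher, where 7.81% of all genes were, and 0 lower, where 337 of all 12090 genes were. Tgfb1 itself was at 9.96 with HDAC9 siRNA and 9.03 with control siRNA, 1.90-fold higher. The inhibitory Smad6 was at 0.91, the corepressor Ski at 0.80 and the signal carrier Smad3 at 0.78. Ccn2, a well-known TGF-beta target, was at -0.38, and Tgfbi, named for its induction by TGF-beta, at 0.52. Both were chosen after their values were seen. Of the 18 ratios 13 were above 0 and 5 below.

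Proteins with a collagen-like domain that are not named as collagens had ratios on both sides of 0. Of 12 such genes above background 0 were past 2-fold, where 1.44% of all genes were higher and 0.372% lower. Ratios were above 0 in 6 of the 12, and the median was 0.00. C1qtnf6 was at 0.82 as a bound and C1qtnf1 at 0.66, while C1qtnf12 was at -0.36 and the ficolin gene Fcna at -0.31. The complement genes C1qa, C1qb and C1qc, macrophage products chosen after their values were seen, were at -0.05, -0.08 and 0.06.

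**Figure D4:**
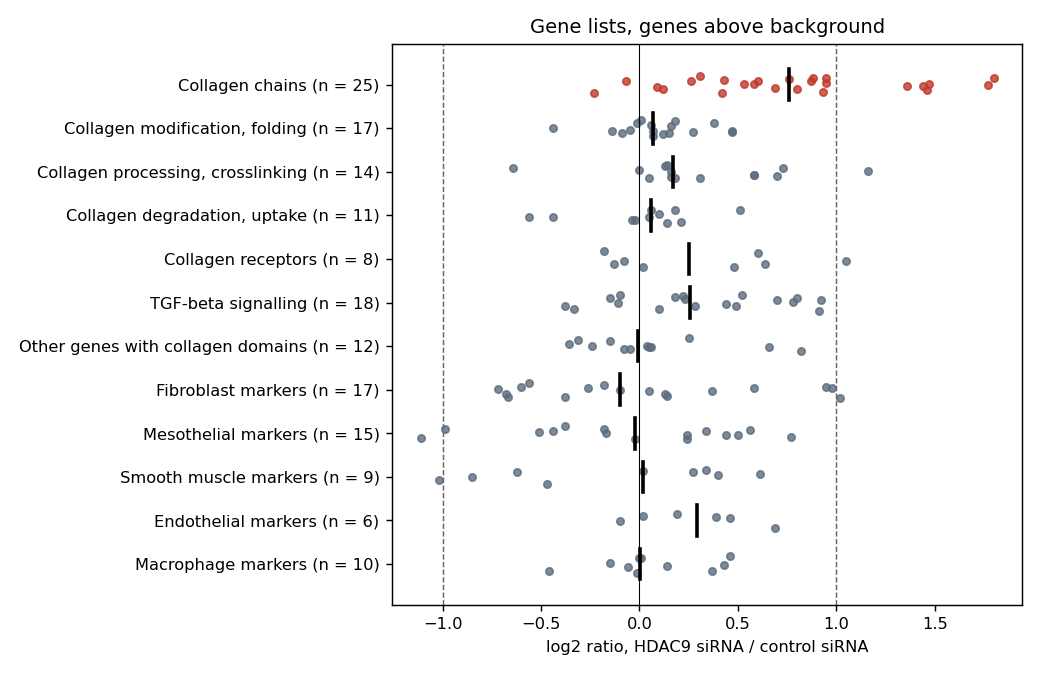
Log2 ratio, HDAC9 siRNA over control siRNA, of each gene above background in the collagen family and in lists of related genes and cell type markers (bars are medians, dashed lines 2-fold; vertical jitter only separates points). The collagen median is 0.76, and those of the other lists plotted lie between -0.10 and 0.29; T and B cell markers, with 2 genes each above background, are not plotted.

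Markers of collagen-making cells were present on both arrays. Of 20 fibroblast markers, 4 of which (Dcn, Lum, Loxl1 and Fap) also stand in the lists above, 17 were above background, 8 with ratios above 0 and 9 below, and the median was -0.10. Their summed linear signal was 30210 with HDAC9 siRNA and 27694 with control siRNA, a ratio of 1.09. The summed signal of the 25 collagen genes was 51991 and 30755, a ratio of 1.69. Bright genes lead such sums: Col1a2 alone gave 21139 and 15669 of the collagen sums, and Dcn was the brightest fibroblast marker. Cd34 (2.02-fold higher), Fbln1 (0.98) and Fbln2 (0.95) had the largest ratios upward and Thy1 (-0.72) the largest downward. The defining markers Pdgfra and Dcn, chosen after their values were seen, were at 12.27 and 13.83 with HDAC9 siRNA and at 12.38 and 13.70 with control siRNA, while Pi16, Twist2 and Clec3b were below background on both arrays. All 15 mesothelial markers were above background, with a median of -0.02 and summed signals of 22279 with HDAC9 siRNA and 19630 with control siRNA. Msln was 2.15-fold lower and Krt7 at -0.99, and Efemp1 (0.77) and Lrrn4 (0.56) were higher.

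Of 12 smooth muscle markers 9 were above background (median 0.02, summed signals 12358 with HDAC9 siRNA and 10938 with control siRNA). Actg2 was 2.03-fold lower, Cnn1, a bound, at -0.85 or less and Myl9 at -0.62, while Smtn was at 0.61. The defining gene Myh11, chosen after its values were seen, was below background on both arrays. The brightest markers, chosen likewise, were Acta2 (12.75 with HDAC9 siRNA and 12.41 with control siRNA), Tagln (11.30 and 11.28) and Des (10.59 and 10.19). Of the 9 ratios 5 were above 0 and 4 below. Of 12 endothelial markers 6 were above background (median 0.29, summed signals 1239 with HDAC9 siRNA and 1050 with control siRNA), with Robo4 at 0.69 as a bound, Vwf at 0.46, Flt1 at 0.39 and Kdr at 0.19. The defining genes Pecam1 and Cdh5 were below background on both. Of the T cell markers 2 of 9 were above background, Cd8a, a bound, at -0.79 and Lat at -0.77, and of the B cell markers 2 of 7, Pax5, a bound, at 0.40 and Ighm at 0.37. The macrophage markers had summed signals of 87768 with HDAC9 siRNA and 89913 with control siRNA. Among them Gata6 and Cd14 had the largest ratios (0.46 and -0.46), followed by Fcgr1 (0.43) and Mertk (0.37). The part of these cell types in the collagen difference was not tested.

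The direction of the collagen counts did not depend on the scaling tried. Counting all genes past 2-fold, 174 were higher and 45 lower as deposited, 93 and 73 after median centring, 123 and 51 after quantile normalization and 124 and 54 after loess. The collagen counts were 6 higher and 0 lower in each. Median centring moved the median of all genes to -0.12 from 0.03, and the collagen median then lay 0.69 above it, where it lay 0.73 above it as deposited. Some of the small list medians turned sign with the scaling. Median centring put the modifying and folding genes at -0.08, the degradation and uptake genes at -0.09, the smooth muscle markers at -0.12 and the macrophage markers at -0.14. It put the processing and crosslinking genes at 0.02, the TGF-beta genes at 0.11, the endothelial markers at 0.14, the collagen-like genes at -0.19 and the fibroblast markers at -0.25. The receptor genes were at 0.44 after quantile normalization. The mesothelial markers were at 0.03 after quantile normalization and 0.02 after loess.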

How the data were processed

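Biotin-labelled cRNA of 2 samples was hybridised to Affymetrix arrays, per the labels' protocols. The authors deposited a log2 signal for each probe set and array. Per the submitters' processing notes the signals come from MAS5, which condenses the probes of a set; the sources used here do not give its version, settings, detection calls or build. The table held 45037 probe sets; 34945 had 1 gene symbol in a platform annotation of 2016, of which 34741 matched RefSeq gene identifiers and 0 changed symbol. The 932 with several symbols and the 9160 with none were left out.

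The authors' scaling was kept. For each of 18193 genes the probe set brightest in mean linear signal was used. The floor, the ratios and the 2-fold threshold are those given above. The number of arrays, 1 per group, limits the precision, and no p-value or standard deviation between samples was computed. The scatter of a single probe set compares the 2 brightest probe sets above background of each gene: it is the standard deviation of their difference in ratio over the square root of 2. The members, the gene lists and the alternatives were chosen with earlier results of these data known. Named were all collagen genes, Hdac9, 6 macrophage markers and up to 4 genes with the largest ratios in each other list. Any other gene named was picked after its values were seen. Promoter windows are from RefSeq (GRCm38.p6). Alternatives were median centring, quantile normalization, loess (span 0.3), a floor lowered to the 75th percentile or raised to the 99th, a pseudocount of 1 in place of a floor, a gene's median over its probe sets, leaving out _s_at, _x_at and _a_at probe sets, genes above the floor on both arrays, and thresholds of 1.5-fold and 3-fold. The code was run on simulated data with shifts set only in genes well above the floor. That run bears on the code, not on bounds at the floor or on a spread between cultures. Python 3.11.15, numpy 2.4.6, pandas 2.3.3, statsmodels 0.14.6 and matplotlib 3.10.9 were used.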

Additional observations from a re-analysis of the deposited data

How the results depend on the processing

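The count of collagen genes at least 2-fold higher was 6 under each scaling, with the higher floor (99th percentile) and among genes above the floor on both arrays. It was 7 with the lower floor (75th percentile), 5 by a gene's median over its probe sets and 5 with suffixed probe sets (_s_at, _x_at and _a_at) left out. It was 10 with no floor and a pseudocount of 1, 15 at a 1.5-fold threshold and 2 at 3-fold (Col1a1 and Col4a6). The gene added with the lower floor was Col23a1. With no floor the added genes were Col23a1, Col4a3, Col4a4 and Col19a1. Col23a1 was below background with control siRNA, and the other added genes were below background on both arrays. Where the count was 6, the share of all genes lay between 0.773% and 1.44%. That share was 4.35% with the lower floor and 12.2% with no floor. It was 1.15% by the median over probe sets and 1.46% with suffixed probe sets left out. Past 1.5-fold it was 7.81% and past 3-fold 0.0827%. The count of lower genes was 0, except 1 (Col22a1) with the lower floor and 4 with no floor (Col6a5, Col15a1, Col22a1 and Col26a1), genes below background on both arrays except Col22a1 with control siRNA. That is 1 of 32 collagen genes, where 259 of all 15136 genes were lower, and 4 of 42, where 1481 of all 18193 were. The median was 0.58 after median centring, 0.63 after quantile normalization, after loess and with no floor, 0.68 with the lower floor, 0.69 by a gene's median over its probe sets and 0.85 with suffixed probe sets left out. The cause of these shifts was not tested. Of 214 alternative values for the 25 genes, 9 moved by more than the 0.29 scatter and 205 by less. Many of the 205 could not move. Keeping only genes above the floor on both arrays leaves each ratio as it was, and a changed floor does not alter genes bright on both arrays. The tally is thus no measure of how stable the values are. No sign turned among the 6 genes past 2-fold; the 5 sign changes were in Col14a1, Col6a3 and Col8a1. By the median over its probe sets Col5a1 was at 0.61, a lower bound because its dimmest probe set was below background with control siRNA. Col6a2 has only probe sets ending in _a_at or _x_at, so it gave no value without them. Col9a1, Col14a1 and Col16a1 gave no value above background without suffixed probe sets either. Col1a2 was then at 0.85 and Col3a1 at 1.81. No paired analysis was possible because there was 1 array per group. Dim signals limit what can be said of the 17 collagen genes below background on both arrays, which is not evidence that they are silent.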
